A study of Mus musculus with 2 samples.

Results

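The cells described here were the regulatory T cells (Tregs) among the immune cells that had entered B16-OVA tumors. They were chosen by their transcripts: at least 2 UMIs (unique molecular identifiers, each standing for 1 captured transcript) of *Cd3d*, *Cd3e* and *Cd3g* together, at least 1 UMI of *Foxp3*, at most 1 UMI of *Cd8a* and *Cd8b1* together, and fewer than 5 UMIs of the myeloid genes *Csf1r*, *C1qa*, *C1qb*, *C1qc* and *Cd14* together. Of 5022 cells, 206 met this rule, 97 of the 2392 cells labelled *Maoa* WT and 109 of the 2630 labelled *Maoa* KO. Cells were profiled by single-cell RNA sequencing (Chromium 3′ V2) from B16-OVA, a mouse melanoma line that carries the ovalbumin antigen, grown under the skin and collected on day 14. The WT mice were C57BL/6J. The KO mice carried the 129S-*Maoa* tm1Shih/J allele backcrossed to C57BL/6J, a hypomorphic allele of the gene for MAO-A, the mitochondrial enzyme that degrades serotonin and other monoamines. It is carried in the germline and so is not specific to T cells or any other lineage. The study's text describes remaining expression in the brain, but nearly no MAO-A left in spleen and bone marrow. Each genotype gave 1 library, made from DAPI-CD45.2+ cells sorted from 10 pooled tumors with 10000 cells loaded, and the study's methods give female mice of 8 to 12 weeks as its default.

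With 1 library per genotype there was no replicate error, and no test between the genotypes was possible. Intervals below are exact 95% intervals that cover counting error only. The targeted gene did not check the labels: *Maoa* had 0 UMIs in the Tregs labelled WT and 2 in those labelled KO, and the 3′ tags counted here need not cover the altered part of the gene. Y-linked genes had 157 and 151 UMIs in the WT-labelled and KO-labelled Tregs while *Xist* had 0 in both, which went against the stated sex. The libraries shared 13 cell barcodes, of which 2 belonged to Tregs and 0 to Tregs of both. Values are given for the WT-labelled library first and the KO-labelled library second wherever 2 values are set side by side.

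Tregs are the CD4+ T cells that restrain other immune cells, and the transcription factor FOXP3 fixes their identity. They take up IL-2 through the high-affinity receptor that contains CD25 (*Il2ra*), block costimulation with CTLA-4, and release or activate suppressive molecules such as IL-10, TGF-β and IL-35. In tumors they commonly carry activation receptors of the TNF receptor family, among them OX40 (*Tnfrsf4*), GITR (*Tnfrsf18*) and 4-1BB (*Tnfrsf9*).

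The Tregs made up similar shares of the T cells in both libraries. They were 8.79% (7.18 to 10.6%) of 1104 WT-labelled T cells and 8.58% (7.09 to 10.3%) of 1271 KO-labelled T cells, intervals that overlapped over most of their length. The sort and the depth of each library also set such shares. The Tregs were sequenced at a median of 7548 and 8856 UMIs per cell, with 2291 and 2520 genes detected at the median and mitochondrial transcripts at 1.18% and 1.40% of UMIs. Over all cells the order of depth was the other way round, with medians of 9887.5 and 6945.5 UMIs. When T cells were first thinned to 3500 UMIs, which left out 0 and 187 cells of lower depth, 65 of 1048 (6.20%) and 66 of 998 (6.61%) met the rule.

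*Foxp3*, on chromosome X (GRCm38, 7573644 to 7595245), was a sparse transcript even in the cells that it chose. It had a single UMI in 30 and 33 Tregs, 2 UMIs in 28 and 26, and 3 or more in 39 and 50, with a highest cell of 12 and 8 UMIs. Just outside the rule, 7 and 6 cells had 2 *Cd8a* and *Cd8b1* UMIs, 2 and 0 had 5 UMIs of the myeloid genes, and 0 and 3 had 1 UMI of the *Cd3* genes. Just inside it, 30 and 25 Tregs had 1 *Cd8a* or *Cd8b1* UMI, 5 and 4 had 4 UMIs of the myeloid genes, and 2 and 1 had 2 UMIs of the *Cd3* genes. A further 296 and 507 cells met everything but *Foxp3*, and at this depth some of them may hold the transcript unseen. Cells that should lack *Foxp3* had at least 1 UMI rarely: 1 of 119 NK cells (0.840%; median depth 5033 UMIs) and 2 of 178 (1.12%; 4153 UMIs), and 2 of 125 macrophages with 5 or more C1q UMIs (1.60%; 11397 UMIs) and 2 of 95 (2.11%; 12277 UMIs). T cells with 2 or more *Cd8a* and *Cd8b1* UMIs held it more often, in 39 of 711 cells (5.49%; 12067 UMIs) and 22 of 655 (3.36%; 5946 UMIs). Among T cells with at most 1 *Cd8a* and *Cd8b1* UMI, where medians were 5314 and 4390.5 UMIs, the shares were 24.7% and 17.7%.

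The label was borne out by markers that the rule did not use. Of *Ikzf2* (Helios, a transcription factor of Tregs), *Izumo1r* (the folate receptor FR4), *Ctla4* and *Tnfrsf4*, at least 3 were detected in 88 WT-labelled Tregs (90.7%, 83.1 to 95.7%) and 98 KO-labelled Tregs (89.9%, 82.7 to 94.9%). None of them was detected in 3 and 2 Tregs. Conventional CD4 T cells, defined by the same rule with 0 *Foxp3* UMIs and at least 1 *Cd4* UMI (92 and 110 cells), reached 3 of the 4 markers in 26.1% and 12.7% of cells. CD8 T cells, with at least 2 *Cd8a* and *Cd8b1* UMIs and no *Foxp3* (672 and 633 cells), reached them in 19.6% and 9.64%. *Cd4* itself was seen in 70 and 67 Tregs (72.2% and 61.5%), and why the others lacked it was not tested.

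Tregs chosen on 1 *Foxp3* UMI also carried *Ikzf2*, at levels well above conventional cells, although fewer of them had it detected. *Ikzf2*, on chromosome 1 (69531214 to 69687245), was detected in 83.3% and 87.9% of Tregs with 1 *Foxp3* UMI, in 100% and 92.3% of those with 2, and in 97.4% and 98.0% of those with 3 or more. As a level, it had 632 and 690 CPM (UMIs scaled to a total of 1000000) at 1 *Foxp3* UMI, 820 and 586 CPM at 2, and 594 and 588 CPM at 3 or more. Conventional CD4 T cells had 170 and 187 CPM. *Ctla4* was seen more often with more *Foxp3*, in 66.7% and 66.7%, then 75.0% and 88.5%, then 97.4% and 90.0% of cells, which are shares that rise with depth as well. After thinning to 3900 UMIs, *Ikzf2* was seen in 86.0% and 82.1% of Tregs, 19.9% and 17.8% of CD8 T cells and 0.806% and 2.15% of macrophages. Thinning left out 4 and 14 Tregs, 20 and 104 CD8 T cells and 1 and 2 macrophages of lower depth.

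**Figure D1:**
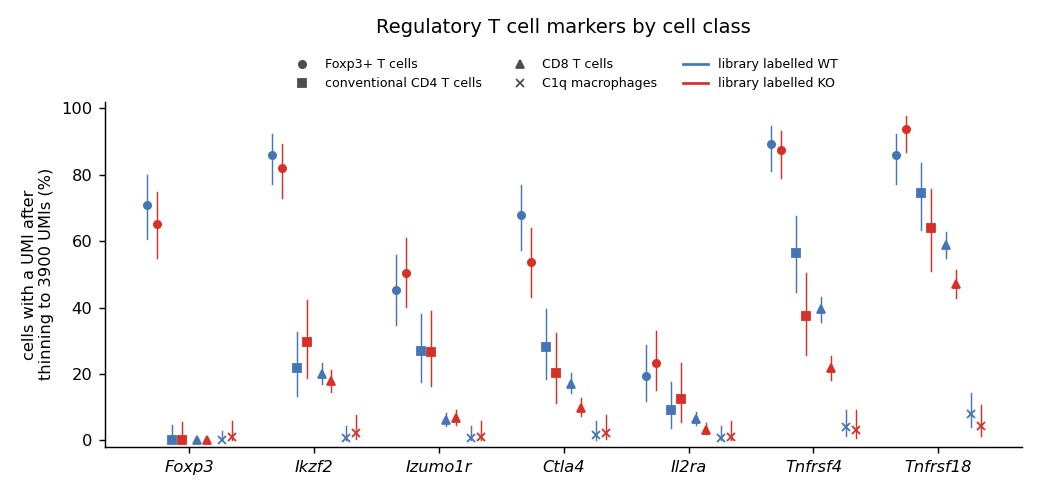
Percent of cells with at least 1 UMI of each Treg marker after thinning to 3900 UMIs, with 95% counting intervals, in Tregs, conventional CD4 T cells, CD8 T cells and macrophages with C1q UMIs, by library. *Foxp3* chose the Tregs and is 0 in the other T cells by rule, while *Ikzf2*, which the rule did not use, was seen in 86.0% and 82.1% of Tregs against 21.8% and 29.7% of conventional CD4 T cells. Thinning left out 14 and 46 conventional CD4 T cells of lower depth.

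A group of the barcodes carried the transcripts of an antigen-presenting cell beside those of a Treg. MHC class II genes present peptides on dendritic cells, macrophages and B cells, and mouse T cells normally do not transcribe them. The sum of *Cd74*, *H2-Aa*, *H2-Ab1* and *H2-Eb1* was 12 and 14 UMIs in the median Treg, but reached 1180 and 1194. It was 100 or more in 19 WT-labelled Tregs (19.6%, 12.2 to 28.9%) and 28 KO-labelled Tregs (25.7%, 17.8 to 34.9%), against 7.61% and 16.4% of conventional CD4 T cells, 1.49% and 2.37% of CD8 T cells and 2.52% and 4.49% of NK cells. The cut at 100 UMIs was set after the values were seen, and no Treg lay between 71 and 109 UMIs in the WT-labelled library or between 99 and 195 in the KO-labelled library.

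The barcodes on the high side were also deep. Their medians were 15652 and 17314.5 UMIs, against 6397.5 and 6019 UMIs for the other Tregs. They held T cell transcripts, with 127 and 254 UMIs of *Cd3d*, 42 and 66 of *Foxp3* and 106 and 240 of *Ikzf2*. Part of them also held some dendritic cell transcripts that were at or near 0 in the remaining Tregs. *Cd209a*, a lectin of monocyte-derived and type 2 conventional dendritic cells, had 80 and 312 UMIs against 0 and 6 in the others. It was detected in 9 of the 19 and 18 of the 28. *Clec10a*, a lectin of the same cells, had 39 and 140 UMIs against 3 and 1, and was detected in 8 and 12. Other dendritic cell markers differed, as *Fscn1* had 10 and 44 UMIs against 14 and 0. B cell transcripts were near 0 in the barcodes on the high side (*Cd79a* 0 and 1). The plasmacytoid marker *Siglech* had 0 and 1 UMIs there, against 0 and 9 in the others. Doublets were not called here, and whether these barcodes held 1 cell or more was not tested. Because their share differed between the libraries, the counts over all genes and the main counts over the gene lists are also given over the 78 and 81 Tregs under 100 MHC class II UMIs.

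**Figure D2:**
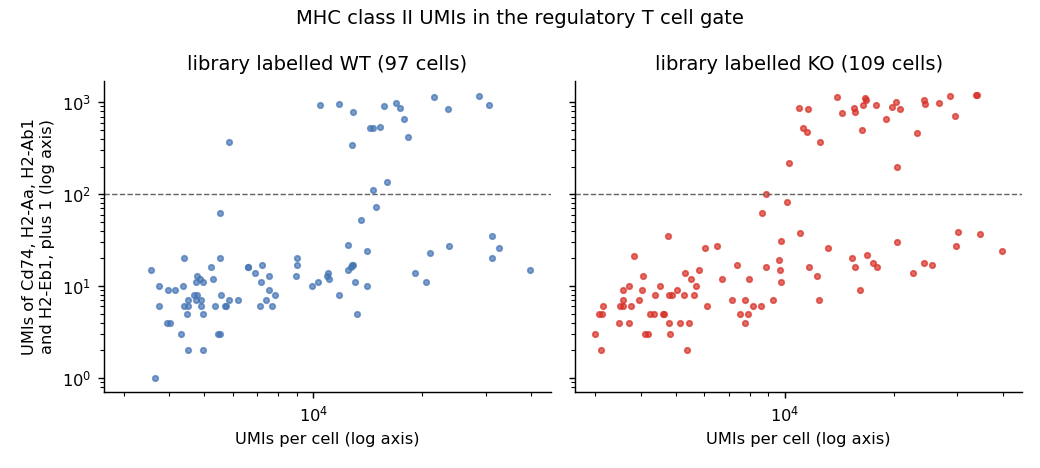
Summed UMIs of 4 MHC class II genes against total UMIs for each Treg, both on log axes and the former plus 1, by library, with a dashed line at the cut of 100 UMIs. The 19 WT-labelled and 28 KO-labelled cells above the line lie mostly towards the right, at medians of 15652 and 17314.5 total UMIs.

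Set against conventional CD4 T cells of the same library, the Tregs had more transcripts of activation receptors and fewer of the genes of naive and recirculating T cells. This contrast rests on *Foxp3*, which chose the cells, so it is a description and not a test. A gene was counted as different where the ratio of CPM was past 2-fold in the same direction in both libraries, neither interval reached a ratio of 1, and at least 50 UMIs were present in each library. Of 3663 genes measured, 42 were higher in Tregs (1.15%, among them *Foxp3* itself) and 32 were lower (0.874%). Over the cells under 100 MHC class II UMIs, 58 (2.14%) of 2715 genes were higher and 28 (1.03%) were lower. The lower genes numbered 6 after thinning every cell to 3500 UMIs, which left out 6 KO-labelled Tregs and 26 KO-labelled conventional cells, and 6 in the 26 and 39 Tregs and 27 and 52 conventional cells with no *Cd8* and no myeloid UMIs, and 17 without cycling cells. The median gene had a log2 ratio of 0.14 and 0.09, and 0.18 and 0.14 in the cells under 100 MHC class II UMIs.

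Among transcription factors of Tregs other than *Foxp3*, 2 of 9 measured were higher and 1 was lower, beside 1.15% and 0.874% of all genes. The medians were 0.09 and −0.01. In cells under 100 MHC class II UMIs 2 of 6 were higher (beside 2.14%), with 0.71 and 0.35. *Ikzf2* had 690 UMIs in Tregs against 107 in conventional cells of the WT-labelled library, and 783 against 137 in the KO-labelled one, log2 ratios of 1.96 and 1.71. *Maf*, a factor that drives *Il10* transcription, had log2 ratios of 1.23 and 1.23. *Satb1*, a chromatin organizer of developing and naive T cells, was the lower one, at −2.29 and −1.63. The other 6 did not pass in both libraries.

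The surface receptors were shifted upwards as a list. Of 13 measured, 5 were higher and 0 lower, beside 1.15% and 0.874% of all genes, with medians of 0.77 and 1.37. In cells under 100 MHC class II UMIs 9 of 11 were higher (beside 2.14%), with medians of 1.43 and 2.10. *Ctla4* had 393 UMIs against 77 and 365 against 79, log2 ratios of 1.62 and 1.40. *Tnfrsf9* had 692 UMIs against 157 and 746 against 106. *Il2ra* had log2 ratios of 1.77 and 1.47, and *Cd81*, a tetraspanin, of 1.65 and 1.49. *Klrg1*, a cadherin-binding receptor of highly differentiated lymphocytes, had 177 UMIs against 7 and 124 against 27, log2 ratios of 3.84 and 1.37. *Tnfrsf4* had 1289 UMIs against 401 and 1376 against 196, missed the rule in the WT-labelled library at a log2 ratio of 0.96, and passed it at 1.10 and 2.38 in the cells under 100 MHC class II UMIs. Summed over the list, the median Treg under 100 MHC class II UMIs gave 54.7 and 54.5 of every 10000 UMIs to these receptors, the median conventional CD4 T cell 11.1 and 8.35, and the median CD8 T cell 10.8 and 4.18.

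Of 5 inhibitory receptors measured, 1 was higher, beside 1.15% of all genes, with medians of 0.12 and 0.56 for the list. In cells under 100 MHC class II UMIs 1 of 4 was higher (beside 2.14%), with 0.48 and 0.51. The higher one was *Lag3*, which binds MHC class II, at 1.47 and 1.67. *Pdcd1* (PD-1) had log2 ratios of 0.00 and 0.08. Of 7 suppressive effector molecules measured, 3 were higher, beside 1.15% of all genes, as in the cells under 100 MHC class II UMIs (beside 2.14%). They were *Gzmb* (granzyme B, a cytotoxic protease that Tregs also use) with 720 UMIs against 153 and 697 against 69, *Fgl2* (a secreted fibrinogen-like protein) at 1.27 and 1.01, and *Penk* (the enkephalin precursor) at 1.76 and 1.78. *Tgfb1*, at 0.25 and 0.69, did not pass. Summed over the effector list, Tregs held 5953 and 5125 CPM, conventional CD4 T cells 3409 and 2289 CPM, and CD8 T cells 6032 and 4279 CPM. After thinning to 3900 UMIs, *Gzmb* was seen in 62.4% and 47.4% of Tregs and 65.5% and 39.5% of CD8 T cells.

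Other genes among the largest ratios were *Arl5a*, a small GTPase, at 1.77 and 1.59, and *Glrx*, which reduces glutathionylated proteins, at 1.72 and 1.48. *Rapsn*, known for clustering acetylcholine receptors in muscle, had 79 UMIs against 4 and 80 against 12, log2 ratios of 3.42 and 1.88. The chemokines *Ccl4* (496 UMIs against 26 and 423 against 39) and *Ccl3* (183 against 30 and 478 against 40) also passed, but 1 Treg held 301 of the 423 KO-labelled *Ccl4* UMIs and 388 of the 478 KO-labelled *Ccl3* UMIs, so that 1 cell decided those values.

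Genes of naive and resting T cells were lower in Tregs in 5 of the 7 measured, beside 0.874% of all genes, with medians of −2.06 and −1.68. *Tcf7*, the factor TCF-1 of naive and memory T cells, had 6 UMIs against 51 in either library, log2 ratios of −3.71 and −3.79. *Klf2*, which drives exit from tissue, had 46 UMIs against 215 and 17 against 68 (−2.94 and −2.77), and *Lef1*, the partner of TCF-1, had 27 against 69 and 27 against 50 (−2.06 and −1.68). *Il7r*, the IL-7 receptor chain that Tregs hold low, had −1.07 and −1.70. *Bcl2*, a survival gene downstream of the IL-7 and IL-2 receptors, had 22 UMIs against 170 and 29 against 94 (−3.65 and −2.49). Of the migration receptors, *Cxcr6* (−1.32 and −1.85) and the integrin chain *Itgb1* (−1.53 and −1.88) were lower and 0 of 7 were higher, as in the cells under 100 MHC class II UMIs. In cells under 100 MHC class II UMIs, 2 of 5 naive genes measured, *Lef1* and *Klf2*, were lower, beside 1.03% of all genes. *Tcf7* and *Satb1* had too few UMIs there, and *Il7r* missed the rule in the WT-labelled library, at −0.85 and −1.68. Of 19 interferon-response genes 1, *Isg20*, an exonuclease, was higher (1.03 and 1.25), beside 1.15% of all genes. The list had medians of 0.38 and 0.18 (1 of 19, beside 2.14%, with 0.65 and 0.39, under 100). Of 15 glycolysis genes 0 passed, with medians of 0.38 and 0.53 (0 of 14, with 0.61 and 0.59, under 100).

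**Figure D3:**
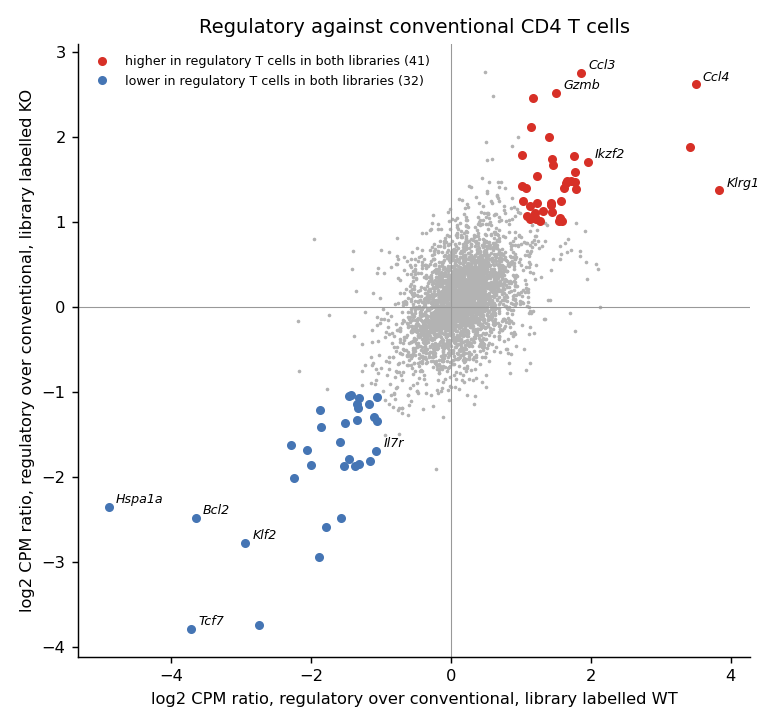
Log2 ratio of CPM in Tregs to conventional CD4 T cells in the WT-labelled library (horizontal axis) and in the KO-labelled library (vertical axis) for 3662 genes, with *Foxp3* left out because it chose the cells. The 41 genes past 2-fold in both libraries lie in the upper right and the 32 past 2-fold below lie in the lower left, with *Tcf7*, *Klf2* and *Bcl2* among the latter.

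A larger share of Tregs than of conventional CD4 T cells held cell cycle transcripts. A cell was counted where 6 cycle genes together had at least 5 UMIs, which held for 26 of 97 WT-labelled Tregs (26.8%, 18.3 to 36.8%) and 33 of 109 KO-labelled Tregs (30.3%, 21.8 to 39.8%). Conventional CD4 T cells gave 10.9% and 7.27%, and CD8 T cells 46.0% and 18.8%. After thinning to 3900 UMIs, with at least 2 UMIs asked for, the Tregs gave 28.0% and 36.8%, the conventional cells 17.9% and 15.6%, and the CD8 T cells 46.9% and 24.2%. Thinning left out 14 and 46 conventional cells and 20 and 104 CD8 T cells of lower depth, beside 4 and 14 Tregs. The thinned intervals of Tregs and conventional cells overlapped in the WT-labelled library (19.1 to 38.2% and 10.2 to 28.3%) and not in the KO-labelled one (27.2 to 47.4% and 7.76 to 26.9%). Under 100 MHC class II UMIs they overlapped in the WT-labelled library (23.2 to 45.7% and 10.1 to 29.3%) and in the KO-labelled one (24.5 to 48.5% and 7.82 to 31.4%). The Treg shares of the 2 libraries had overlapping intervals, and with 28.2% and 27.2% in the cells under 100 MHC class II UMIs their order was the other way round. After thinning, the Tregs under 100 gave 33.8% and 35.8%, in the first order again. The class is a cut through a range of UMIs, and 3 and 2 Tregs lay at 4 or 5 UMIs.

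Between the libraries, several interferon-response genes were lower in the KO-labelled library. No measured transcription factor or surface receptor of Tregs was past 2-fold, but few of all genes were, so short lists would mostly hold none. UMIs were summed over the Tregs of each library. A gene was counted where it had at least 50 UMIs over both, the ratio of CPM was past 2-fold, and its interval left out a ratio of 1. Of 4753 genes measured, 47 were higher in the KO-labelled Tregs (0.989%) and 74 were lower (1.56%), with a median log2 ratio of −0.04. In cells under 100 MHC class II UMIs, 20 (0.588%) of 3404 genes were higher and 54 (1.59%) were lower, with a median of −0.00. After thinning to 3900 UMIs the counts were 19 and 29, and in the Tregs with no *Cd8* and no myeloid UMIs 21 and 28. Of the 47 higher genes, 8 were also counted in the same direction in the cells under 100 MHC class II UMIs, and 29 without each gene's highest cell. For the 74 lower genes these numbers were 33 and 54.

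Apart from *Foxp3*, none of the 12 transcription factors of Tregs measured was counted, beside 0.989% of all genes higher and 1.56% lower. Their median was −0.06. In the cells under 100 MHC class II UMIs none of 8 was, beside 0.588% and 1.59%, with a median of −0.19. *Foxp3* had 263 and 299 UMIs, or 252 and 234 CPM, but every Treg was chosen for it, so that its ratio says nothing of these factors. *Ikzf2* had 690 and 783 UMIs, or 662 and 613 CPM, a log2 ratio of −0.11 (−0.26 to 0.04). The interval of *Ikzf2* left no room for a 2-fold difference in these counts. *Maf* had 0.13 (−0.15 to 0.41) and *Gata3*, a factor of tissue Tregs and Th2 cells, −0.36 (−0.83 to 0.09). *Nfil3*, a basic leucine zipper factor, was the only one of the list whose interval left out 0, at 58 and 36 UMIs and −0.98 (−1.63 to −0.36).

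The surface receptors also stayed within 2-fold, in 15 of 15 measured, beside 0.989% of all genes higher and 1.56% lower. Their median was −0.19. In the cells under 100 MHC class II UMIs 12 of 12 did, beside 0.588% and 1.59%, with a median of −0.16. The interval lay below 0 for 5 of the 15, beside 10.1% of all genes, and above it for 1 (7.11%). Under 100 this turned round, with 1 of 12 below 0 (beside 9.08%) and 2 above (beside 7.81%). Summed over the cells under 100, the receptors stood at −0.02 (−0.08 to 0.05), which divided into 0.32 (0.22 to 0.42) in cycling Tregs and −0.26 (−0.34 to −0.17) in the others. *Tnfrsf4* had 1289 and 1376 UMIs, or 1237 and 1077 CPM (−0.20), and 0.00 in the cells under 100 MHC class II UMIs. *Tnfrsf18* had 870 and 1116 UMIs (0.06), *Ctla4* 393 and 365 UMIs (−0.40), and *Icos*, a costimulatory receptor, 248 and 256 UMIs (−0.25). The receptor that stood lowest was *Klrg1*, with 177 and 124 UMIs (−0.81, −1.15 to −0.47). *Il2ra* stood highest at 70 and 128 UMIs (0.57, 0.14 to 1.02). Among 6 inhibitory receptors 0 passed, in all Tregs and under 100, and *Vsir* (VISTA, a B7-family checkpoint) had the lowest ratio at 141 and 104 UMIs (−0.73, −1.11 to −0.36), while *Pdcd1* had 0.23 (−0.09 to 0.56).

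Suppressive effector molecules gave 1 higher and 3 lower genes of 10 measured, beside 0.989% and 1.56% of all genes, and each of the 4 rested on few cells. The list had a median of −0.40, with an interval below 0 for 5 (beside 10.1% of all genes) and above 0 for 1, and its sum had −0.22 (−0.27 to −0.17). In the cells under 100 MHC class II UMIs 0 were higher and 1, *Gzma*, was lower of 7 measured, with a median of 0.04 and a sum at 0.01 (−0.05 to 0.07), since *Il10* and *Gzmc* had under 50 UMIs there and *Penk* was within 2-fold. *Il10*, the anti-inflammatory cytokine, had 42 and 21 UMIs in 15.5% and 10.1% of Tregs (−1.28, −2.12 to −0.51). *Gzma*, a granzyme of NK and cytotoxic T cells, had 83 and 44 UMIs, of which 61 and 27 were in 1 cell of each library, and −1.20 became −0.66 without those cells. *Gzmc*, a further granzyme, had 735 and 12 UMIs, but 713 of the 735 came from 1 cell. *Penk* had 81 and 206 UMIs (1.05), 60 of them in 1 KO-labelled cell, and 0.51 in the cells under 100 MHC class II UMIs. In Tregs with at least 2 *Foxp3* UMIs its ratio turned to −0.31. *Tgfb1*, with 259 and 317 UMIs (−0.00), and *Lgals1* (galectin-1), with 3942 and 4946 (0.03), stayed close. *Gzmb* had 720 and 697 UMIs (−0.34) and was detected in 76.3% and 59.6% of Tregs, or 62.4% and 47.4% after thinning to 3900 UMIs.

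Signalling and metabolic lists held few counted genes, where 0.989% of all genes were higher and 1.56% lower (0.588% and 1.59% under 100). Of 13 genes of IL-2 receptor and STAT5 signalling, 1 was lower, *Socs1*, beside 1.56% of all genes. In the cells under 100 MHC class II UMIs 2 of 10 were lower, beside 1.59%. They were *Socs1* and *Socs2*, which both restrain cytokine receptors. Of 12 genes of NF-κB and TNF receptor signalling and of 8 chemokine and migration receptors, 0 passed, with medians of −0.08 and −0.04 (0 of 11 and 0 of 7 under 100). Of 13 genes induced by the T cell receptor, 1 was lower, beside 1.56% of all genes. It was *Dusp2*, a phosphatase of MAP kinases, at 132 and 36 UMIs (−2.15), and also the only one of 10 under 100 (beside 1.59%). It was lower in conventional CD4 T cells (113 and 24 UMIs, −2.43) and CD8 T cells (1410 and 243 UMIs, −1.77) as well. Of 16 glycolysis and hypoxia genes 0 passed, but 10 had an interval below 0 (beside 10.1% of all genes) and 2 above it, with a median of −0.25, and their sum had a log2 ratio of −0.22 (−0.25 to −0.18). In the cells under 100, 7 of 14 had an interval below 0 (beside 9.08% of all genes), with a median of −0.19 and a sum at −0.14, which was −0.27 in cycling Tregs and 0.03 (−0.03 to 0.10) in the others. The sum was lower in conventional CD4 T cells (−0.31, and −0.09 under 100) and CD8 T cells (−0.44 in both) too. The 2 above it were *Hk2*, the inducible hexokinase, with 38 and 83 UMIs (0.82) and *Hif1a*, the hypoxia factor, 169 and 270 (0.38), while *Hk1*, the constitutive hexokinase, had 80 and 60 (−0.71). Of 20 cell cycle genes and 10 lipid-handling genes 0 passed, with medians of 0.10 and 0.26, and −0.12 and 0.03 under 100 (0 of 20 and 0 of 7). For 9 genes of MHC class I presentation 0 passed and 6 had an interval below 0, beside 10.1% of all genes, with a median of −0.25 (6 of 8, beside 9.08% of all genes, and −0.25 under 100), and *B2m* had 6842 and 6865 UMIs (−0.29) and *H2-K1* 2602 and 2561 (−0.32). Of 5 naive T cell genes measured, 1 was lower, *Klf2*, at 46 and 17 UMIs (−1.70), beside 1.56% of all genes. Under 100, *Klf2* had 34 and 9 UMIs, too few to be measured, and 0 of 3 passed. The naive list summed to −0.61 (−0.84 to −0.38), and to −0.63 (−0.93 to −0.34) under 100. The latter divided into −0.28 (−0.77 to 0.20) in cycling Tregs and −0.86 (−1.25 to −0.48) in the others. In conventional CD4 T cells the sum had −0.47, and in CD8 T cells 1.28. Only 2 of 12 helper cytokine and helper lineage genes reached 50 UMIs, and 0 passed, while 0 reached it under 100.

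Interferon-response genes are switched on by type I or type II interferon, and the type I response acts through promoter sites called ISREs. Of the 19 measured of the 20 listed, 0 were higher and 5 were lower past 2-fold in the KO-labelled Tregs, beside 1.56% of all genes. The interval lay below 0 for 15 of the 19, beside 10.1% of all genes, and the median was −0.60 against −0.04 over all genes. In cells under 100 MHC class II UMIs, 3 of 19 were lower, 12 had an interval below 0 (beside 9.08% of all genes), and the median was −0.51. Of the 5 lower genes, 4 hold the core of the ISRE in their promoter, while *Iigp1* was not matched to a promoter, and the stretches of 3 are printed to show it; that of *Gbp2* overlaps the annotated gene and is left out. The capitals mark each match, on either strand, to GAAA followed by any 2 bases and a second GAAA, and each stretch is written on the gene's own strand:
*Ifit3*: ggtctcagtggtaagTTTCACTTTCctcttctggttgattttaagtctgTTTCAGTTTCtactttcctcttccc
*Gbp7*: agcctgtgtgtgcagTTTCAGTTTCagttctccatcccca
*Socs1*: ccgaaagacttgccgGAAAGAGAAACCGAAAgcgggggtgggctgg
They lie at chr19:34583358-34583431 (+ strand, 171 to 98 bases before the start of *Ifit3*), chr3:142530268-142530307 (+ strand, 68 to 29 bases before *Gbp7*) and chr16:10785589-10785634 (− strand, 98 to 53 bases before *Socs1*), all upstream of the annotated gene in RefSeq's GRCm38.p6. The *Socs1* stretch holds 2 matches that overlap. The motif was present in the 250 bases before the start of 8 of the 15 list genes that have a promoter entry (53.3%: *Isg15*, *Ifit1*, *Ifit3*, *Bst2*, *Gbp2*, *Gbp7*, *Igtp* and *Socs1*), and in 936 of 27025 genes overall (3.46%). A match describes the letters and does not show that a factor binds there. The list was chosen as interferon-response genes, and *Gbp4*, *Ifi27l2a*, *Iigp1* and *Zbp1* were among those with no entry.

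The 5 lower genes were *Ifit3*, *Gbp7*, *Iigp1*, *Socs1* and *Gbp2*. *Gbp7*, a guanylate-binding GTPase of cell-autonomous defence, had 206 and 105 UMIs in 76.3% and 52.3% of Tregs, or 198 and 82.2 CPM (−1.26, −1.62 to −0.92), and the same −1.26 in the cells under 100 MHC class II UMIs. *Iigp1*, an immunity-related GTPase, had 145 and 84 UMIs (−1.08, −1.49 to −0.68), and −1.16 in the cells under 100. *Socs1*, the inhibitor that interferon and IL-2 signalling induce against themselves, had 91 and 54 UMIs (−1.04, −1.56 to −0.55), and −1.07. These 3 ratios moved little with the MHC class II barcodes. *Ifit3*, which helps block translation of foreign RNA, had 96 and 40 UMIs in 27.8% and 11.9% of Tregs (−1.55, −2.13 to −1.01), with 25 and 11 UMIs in 1 cell, and −0.75 in the cells under 100. In the 26 and 39 Tregs with no *Cd8* and no myeloid UMIs it had 6 and 21 UMIs and its ratio turned to 1.12. *Gbp2*, a relative of *Gbp7*, had 149 and 89 UMIs (−1.04), and −0.51. *Ifit3* and *Gbp2* were therefore past 2-fold over all Tregs and not over those under 100.

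Members within 2-fold mostly stood lower in the KO-labelled Tregs as well. *Ifi27l2a*, a small mitochondrial interferon-induced protein, had 4363 and 3177 UMIs, or 4188 and 2486 CPM (−0.75, −0.82 to −0.69), and was detected in 99.0% and 99.1% of Tregs. *Isg15*, a ubiquitin-like modifier, had 312 and 235 UMIs (−0.70), but 172 and 180 UMIs and 0.03 in the cells under 100 MHC class II UMIs. *Irf7*, the factor that amplifies type I interferon, had 150 UMIs in either library (−0.29, −0.63 to 0.04), and 0.27 in the cells under 100. The list was thus not uniform.

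Summed over the list, Tregs held 9069 and 5943 CPM (−0.61, −0.65 to −0.57). Without *Ifi27l2a*, the most abundant member, the sums were 4881 and 3457 CPM (−0.50), and in the cells under 100 MHC class II UMIs 4875 and 3816 CPM (−0.35, −0.43 to −0.28). Cell by cell, the Tregs under 100 MHC class II UMIs gave between 18.4 and 621 of every 10000 UMIs to the list in the WT-labelled library (quartiles 66.6, 105 and 142) and between 19.5 and 296 in the KO-labelled library (quartiles 39.2, 65.5 and 109). The ranges overlapped and the middle of the KO-labelled distribution lay near the lower quartile of the other. Cycling Tregs had 8459 and 5056 CPM (−0.74) and the others 11746 and 8994 CPM (−0.39), both over cells under 100 MHC class II UMIs. The list stood lower in both.

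Other T cells of the same tumors showed part of this. In conventional CD4 T cells, 1 of 18 list genes measured was lower past 2-fold (*Socs1*, −1.06), beside 2.40% of all genes, and 10 had an interval below 0, beside 9.29%, with a median of −0.46. In the conventional cells under 100 MHC class II UMIs these were 1 of 15, beside 3.46%, and 3 of 15, beside 8.66%, with a median of −0.22. In CD8 T cells, 0 of 20 passed, 6 had an interval below 0 and 6 above it, beside 24.2% and 12.1% of all genes, and the median was 0.00. In the CD8 T cells under 100 MHC class II UMIs 0 of 20 passed, 8 had an interval below 0 and 3 above it, beside 24.2% and 11.1%, and the median was −0.04. Their sum over the list was nevertheless lower, at 3573 and 2944 CPM (−0.28, −0.31 to −0.25), and −0.06 (−0.09 to −0.03) without *Ifi27l2a*. In CD8 T cells under 100 MHC class II UMIs the sum had −0.40 in cycling cells and −0.40 in the others, the latter near the −0.39 of Tregs that were not cycling. Without *Ifi27l2a* these CD8 values were −0.17 and −0.15, against −0.48 and −0.25 in cycling and other Tregs under 100. The conventional cells had −0.45 for the sum, and −0.22 without *Ifi27l2a*. Under 100 MHC class II UMIs these became −0.31 and −0.05 (−0.15 to 0.05). *Gbp7* had −0.67 and −0.32 in conventional and CD8 T cells, *Iigp1* 0.58 and −0.02, *Ifit3* −0.61 and 0.52, and *Ifi27l2a* −0.77 and −0.86. The difference between the classes was not tested, as each class gives 1 value per library.

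**Figure D4:**
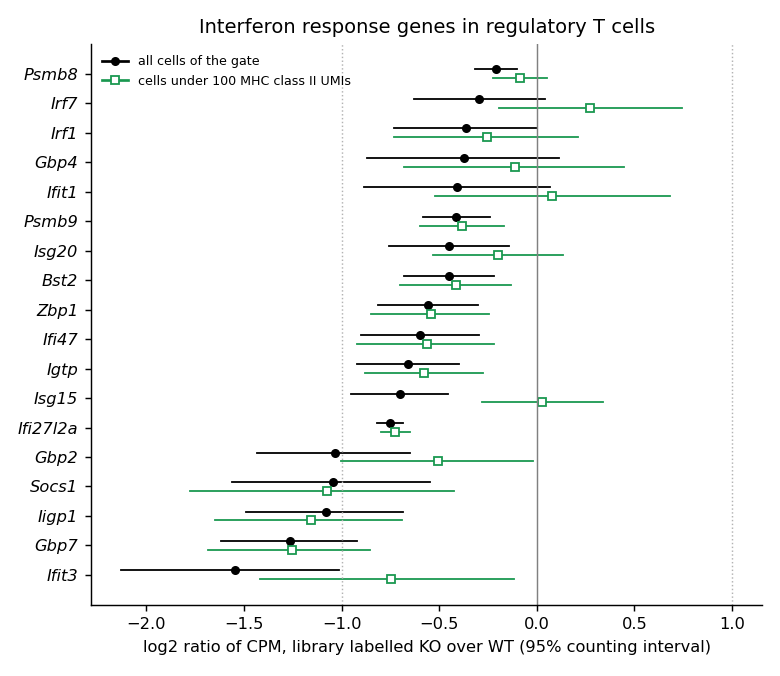
Log2 ratio of CPM, KO-labelled over WT-labelled, with 95% counting intervals, for 18 interferon-response genes in all Tregs and in Tregs under 100 MHC class II UMIs. All 18 values over all Tregs lie left of 0, and in the cells under 100 *Irf7*, *Ifit1* and *Isg15* lie right of it.

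The largest ratios between the libraries belonged mostly to genes outside these lists. On the higher side, *Apobec3*, a cytidine deaminase that restricts retroviruses (chromosome 15, 79891659 to 79915906), had 39 and 325 UMIs in 27.8% and 90.8% of Tregs, or 37.4 and 254 CPM (2.75, 2.28 to 3.28). It had 2.72 in the cells under 100 MHC class II UMIs, 3.70 in conventional and 2.41 in CD8 T cells. *Odc1*, ornithine decarboxylase, the rate-limiting enzyme of polyamine synthesis (chromosome 12, 17544794 to 17551505), had 124 and 840 UMIs in 45.4% and 84.4% of Tregs, or 119 and 657 CPM (2.46, 2.19 to 2.75). Its ratio was 2.75 in the cells under 100 MHC class II UMIs, 1.36 in conventional and 0.90 in CD8 T cells. *Nrn1*, neuritin, which is also known as a product of anergic and regulatory T cells, had 18 and 81 UMIs in 11.3% and 25.7% of Tregs (1.84, 1.13 to 2.70), against 0.18 and 0.69 in conventional and CD8 T cells. *Gpr55*, a lysophospholipid receptor, had 12 and 52 UMIs in 12.4% and 32.1% of Tregs (1.78, 0.90 to 2.86), against 0.72 and 1.62, and *Rpe*, of the pentose phosphate pathway, had 11 and 39 UMIs (1.49, 0.54 to 2.65). These 5 genes were spread over many Tregs.

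The other 5 of the 10 genes highest in the KO-labelled Tregs were carried by few cells or by the barcodes of high MHC class II. *Ccl22*, a chemokine of dendritic cells that attracts CCR4+ Tregs, had 25 and 221 UMIs (2.82), held by 4 cells of each library with up to 18 and 101 UMIs in 1 cell. *Chil3*, a chitinase-like protein of macrophages, had 4 and 51 UMIs, 29 of them in 1 cell. *Cd209a* (80 and 318 UMIs) and *Cd209d* (8 and 42 UMIs), lectins of myeloid cells, had 0 and 6, and 0 and 0, under 100 MHC class II UMIs. *Hspa1a*, the inducible heat-shock protein HSP70, had 11 and 55 UMIs, but 9 and 9 under 100. The myeloid markers as a list summed to 13876 and 23414 UMIs over all Tregs and to 1481 and 2328 UMIs under 100 (a median of 13 and 11 UMIs per cell), with all 14 markers detected. Of 9 measured, 6 had an interval above 0 (beside 7.11% of all genes), with a median of 0.43 and 1, *Lyz2*, past 2-fold. Under 100 these were 5 of 8 (beside 7.81%), a median of 0.47 and 2 past 2-fold (beside 0.588%), *Lyz2* and *Apoe*. *Apoe*, the apolipoprotein E of macrophages, had 47 and 101 UMIs (0.80), and 27 and 83 under 100 (1.57), with 15 and 38 in 1 cell over all Tregs. *Lyz2*, lysozyme, had 317 and 1080 UMIs (1.47), and 236 and 759 under 100 (1.65), with 78 and 273 in 1 cell. The 6 NK markers summed to 546 and 833 UMIs, of which the shared myeloid gene *Tyrobp* gave 515 and 807, the 6 CD8 T cell markers to 1057 and 1075, the 5 B cell markers to 24 and 39, and the 6 melanoma markers to 9 and 7 with *Tyr* at 0. The part of myeloid and other transcripts in these differences was not tested.

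On the lower side, 7 of the 10 genes were found across many WT-labelled Tregs. *Gdpd3*, a lysophospholipase D (chromosome 7, 126766334 to 126775649), had 360 and 12 UMIs in 73.2% and 9.17% of Tregs, or 346 and 9.39 CPM (−5.14, −6.17 to −4.38). *Ctse*, the aspartic protease cathepsin E, had 94 and 2 UMIs in 59.8% and 1.83% of Tregs (−5.54, −8.92 to −3.96). The pseudogene *Gm10093* had 103 and 5 UMIs (−4.53, −6.31 to −3.39), though reads of a processed pseudogene may belong to its parent gene. *Snx20*, a sorting nexin of blood cells, had 123 and 18 UMIs (−3.03, −3.87 to −2.35), and *Dapk3*, a death-associated kinase, 49 and 7 UMIs (−3.02, −4.49 to −1.95). The ratios were also below 0 in the other T cells: *Gdpd3* had −4.36 in conventional and −5.19 in CD8 T cells, *Ctse* −4.10 and −4.54, *Gm10093* −4.72 and −3.94, and *Snx20* −2.52 and −2.52. *Cap1*, a regulator of actin filaments, and *Alad*, of heme synthesis, stood lower as well, at 426 and 103 UMIs (−2.34) and 103 and 57 UMIs (−1.14).

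*S100a8* and *S100a9*, the calprotectin genes of neutrophils, had 66 and 2 UMIs (−5.03, −8.41 to −3.43) and 61 and 1 UMIs (−5.65, −11.55 to −3.69). They were seen in 45.4% and 44.3% of the WT-labelled Tregs at no more than 6 and 4 UMIs per cell. The 5 neutrophil markers together had 133 and 6 UMIs, of which *Retnlg* had 5 and 0, *Cxcr2* 0 and 1 and *Csf3r* 1 and 2, so the defining receptors were at or near 0. Conventional CD4 T cells had 734 and 5 UMIs of that list, of which 656 were in 1 WT-labelled cell. The part of RNA from neutrophils was not tested. Beside *Gzmc*, the last 2 of the lower genes were *Serpinb9b*, a serine protease inhibitor with 49 and 1 UMIs, of which 47 were in 1 cell, and *Gclm*, the modifier subunit of glutathione synthesis, with 43 and 10 UMIs (−2.35), of which 23 were in 1 cell.

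Of the 74 genes lower in the KO-labelled Tregs, 45 could be measured in conventional CD4 T cells and 38 of these were lower there too, and in CD8 T cells 50 of 74 were, with 30 lower in all 3 classes. Of the 47 higher genes these counts were 10 of 24, 20 of 43 and 6. In those comparisons 2.40% and 1.91% of all genes were lower and 1.35% and 1.91% were higher. The classes came from the same 2 libraries, so the counts do not replicate one another. Differences between the libraries that all classes share cannot be told apart from differences between the 2 preparations.

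**Figure D5:**
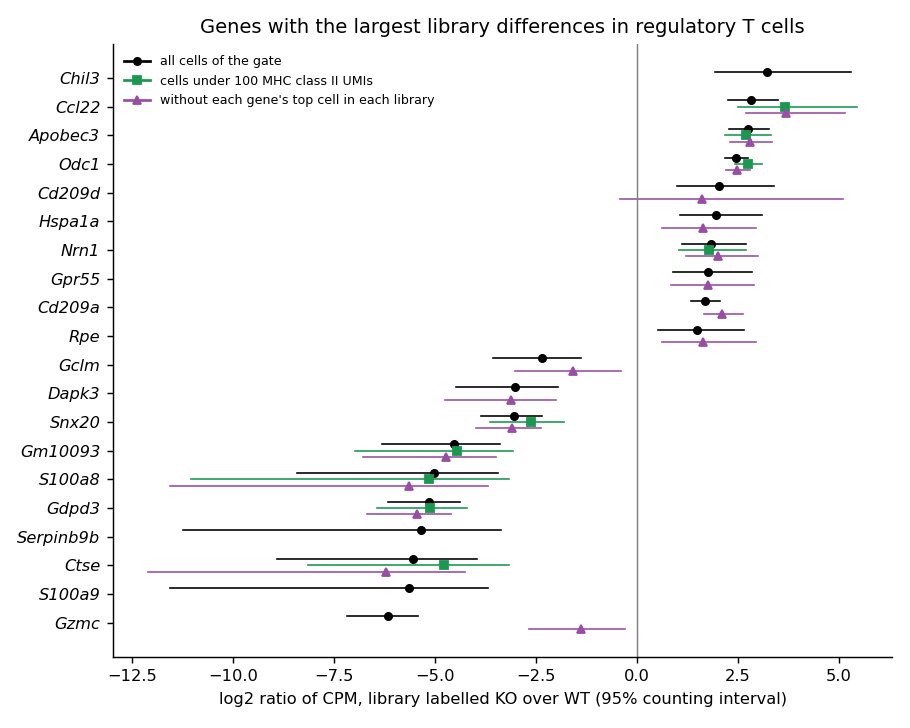
Log2 ratio of CPM in Tregs, KO-labelled over WT-labelled, with 95% counting intervals, for the 10 genes with the largest ratio in each direction, over all Tregs, over Tregs under 100 MHC class II UMIs where the gene had 50 UMIs, and without the gene's highest cell in each library. *Apobec3*, *Odc1*, *Gdpd3* and *Ctse* stay far from 0 in all 3, while *Gzmc* moves from −6.17 to −1.39 without 1 cell of each library.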

How the data were processed

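Immune cells of both libraries were measured by droplet sequencing with UMIs (Chromium 3′ V2). Per the labels, reads were processed with Cell Ranger on mm10; the version was not given in the sources used here. The authors kept cells of 300 UMIs, 100 genes or more and 5% mitochondrial transcripts or less, and deposited natural log values, ln(1 + UMIs scaled to 10000 per cell), for 17232 genes in 5022 cells, although the labels call them raw counts. The log was undone and each value divided by the smallest one of its cell; 100% of the 11830623 values above 0 were then whole to within 0.01, and were used as UMIs. The library of each cell was read from its barcode suffix, and 0 value columns were left unused. T cell receptor genes were not used here, and some genes of the lists are not reported here.

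UMIs were summed per library and class and divided by the class total (CPM). Ratios had 0.5 UMIs added and exact conditional intervals at 95%. Genes under 50 UMIs were not measured. Thinning was without replacement, to the 10th percentile of depth. Python 3.11.15, numpy 2.4.6, scipy 1.17.1 and matplotlib 3.10.9 were used, and the scripts were tested on simulated data. Genes named were those of the rule, members of 26 lists, and the 10 largest counted ratios in each direction; *Clec10a* was chosen after its values were seen. The members, lists and tests were chosen with earlier results of these data known.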

Additional observations from a re-analysis of the deposited data

Results flagged for a closer look

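Among Tregs and conventional CD4 T cells under 100 MHC class II UMIs, 4 genes had ratios past 2-fold in opposite directions in the 2 libraries, which is what drew attention to them. *Lyz2*, lysozyme of macrophages and neutrophils, had a log2 ratio of Tregs to conventional cells of −1.93 in the WT-labelled library (236 UMIs against 678) and 2.23 in the KO-labelled library (759 against 105). *Ifitm3* and *Ifitm2*, interferon-induced membrane proteins that block virus entry, had −1.46 and 1.18, and −1.18 and 1.02. *Cxcl2*, a chemokine that attracts neutrophils, had −1.40 and 1.51. Single cells held part of these UMIs. Of the *Lyz2* UMIs, 78 of 236 and 273 of 759 were in 1 Treg, and 202 of 678 and 6 of 105 in 1 conventional cell. Over all WT-labelled conventional cells, 1 cell also held 656 of the 734 UMIs of 5 neutrophil markers, and its part in these ratios was not tested. Without the highest cell of each class and library, an alternative added after the data were seen, the ratios were −2.01 and 1.62 for *Lyz2*, −1.29 and 1.01 for *Ifitm3*, −1.10 and 0.92 for *Ifitm2*, and −1.04 and 0.92 (−0.15 to 2.24) for *Cxcl2*. The difference between the libraries was not tested, since each gives 1 value. The 4 genes were chosen after their values were seen.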

How the results depend on the processing

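With 1 library per genotype no replicate could be left out, and all values carry counting error only. No paired analysis was possible because each genotype has 1 library and no test was made. The Treg share of T cells was 6.20% and 6.61% when cells were thinned before the rule, 6.07% and 5.98% with at least 2 *Foxp3* UMIs, 6.07% and 6.61% with no *Cd8a* or *Cd8b1* UMI, and 7.52% and 6.97% without cells of high MHC class II. It was 4.06% and 4.14% of all cells and 51.3% and 49.8% of *Cd4*-lineage T cells, and 8.03% (6.97 to 9.19%) and 6.01% (5.13 to 6.98%) of all cells had any *Foxp3* UMI. Genes higher and lower in KO-labelled Tregs numbered 19 and 29 after thinning, 21 and 28 in the 26 and 39 Tregs with no *Cd8* and no myeloid UMIs, 124 and 179 at a minimum of 20 UMIs, 15 and 43 at 100, and 135 and 255 at 1.5-fold, and the higher ones 24 without cycling cells and 20 without cells of high MHC class II. Genes higher in Tregs than in conventional cells numbered 67 by the mean of per-cell CPM, 67 at 20 UMIs (64 lower) and 137 at 1.5-fold (72 lower), and lower ones 6 after thinning, 6 with no *Cd8* and no myeloid UMIs, 17 without cycling cells and 16 at 100 UMIs. Of 650 values of 65 named genes between the libraries, 10 changed sign: *Penk* (−0.31 with at least 2 *Foxp3* UMIs); with no *Cd8* and no myeloid UMIs *Ifit3* (1.12), *Ccl3* (−3.46) and *Ccl22* (−3.77, 4 and 0 UMIs); *Hspa1a* (−0.036, 9 and 9 UMIs) without cells of high MHC class II; and *Ccl3* without cycling cells (−1.07), without cells above the 95th percentile of depth (−1.06) and without its highest cell (−0.91). The other 2, *Cd209d* at −0.60 and −0.036 in those subsets, rest on 0 UMIs in both libraries and give only the ratio of the totals. A further 127 moved beyond their intervals. The cause was not tested, except that the smaller subsets hold fewer cells and so fewer UMIs. The alternatives of MHC class II, the highest cell and any *Foxp3* UMI were added after the data were seen.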
